A study of Mus musculus with 15 samples.

Results

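The Krüppel-like factors examined here were Klf2, Klf3, Klf4, Klf6, Klf7, Klf9, Klf10, Klf11, Klf13 and Klf15. They were picked by gene name, and 10 of the 22526 gene symbols in the expression table matched. All 10 passed the filter on low values (a mean of at least 1 FPKM over the 15 libraries, which 13082 genes passed). FPKM counts fragments per kilobase of transcript, scaled to all fragments mapped, so levels are per length. Some deposited values lie below 0, from a step that no source used here describes, so the order of levels between genes holds for the values as deposited.

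RNA was sequenced from vessels isolated from the brains of wild-type C57BL/6 mice aged 8 months, in 3 groups of 5 libraries. GFP-Veh mice had a stereotactic injection of AAV-GFP, an adeno-associated virus carrying green fluorescent protein, and received saline. GFP-AL mice had AAV-GFP and received AngII (angiotensin II, a peptide that constricts vessels) plus L-NAME, which blocks nitric oxide synthases. LH3-AL mice had AAV-LH3 and the same drugs. LH3 is lysyl hydroxylase 3, a collagen-modifying enzyme encoded by Plod3. Every group carried a virus, no group had AAV-LH3 with saline, and the labels name neither the promoter nor the cell type that drives the viral gene. The labels do not say whether each library came from its own mouse, so p-values measure the spread between these libraries, which may be technical. Plod3 stood at 16.8 ± 0.621, 13.9 ± 1.09 and 21.6 ± 1.46 FPKM (mean ± SD, n = 5 each) in GFP-Veh, GFP-AL and LH3-AL, and the 5 LH3-AL libraries lay above the 10 others.

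Krüppel-like factors are transcription factors whose zinc fingers bind GC-rich and CACCC sequences. In endothelium, steady laminar flow is known to raise Klf2 and Klf4 through the kinases MEKK3 and ERK5 and the factor MEF2, and their products favour genes of vessel relaxation and anticoagulation and restrain genes of leukocyte adhesion. Klf6 is known as an injury-induced member, Klf10 and Klf11 as TGF-beta-inducible members that recruit the Sin3 co-repressor, Klf9 and Klf15 as glucocorticoid-responsive members, and Klf3 as a repressor that binds CtBP.

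The start regions of the members that changed most are shown because the Klf2 window holds a MEF2 site, the kind through which the flow pathway is known to act, and the windows of Klf4, Klf6 and Klf11 share another motif. Each runs from 250 bases before to 50 bases after the gene start in RefSeq (GRCm38.p6), 5′ to 3′ on the strand of the gene. Capitals mark a MEF2 site in Klf2 and the E-box CACGTG in the other members shown.

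Klf2 promoter, chr8:72318812-72319111, plus strand: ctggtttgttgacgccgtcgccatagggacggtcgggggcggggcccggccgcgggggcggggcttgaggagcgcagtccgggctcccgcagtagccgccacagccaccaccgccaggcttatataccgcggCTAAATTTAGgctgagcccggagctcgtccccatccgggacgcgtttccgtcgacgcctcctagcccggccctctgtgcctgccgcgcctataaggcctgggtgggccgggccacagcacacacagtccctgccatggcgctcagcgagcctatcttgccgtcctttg
Klf4 promoter, chr4:55532426-55532725, minus strand: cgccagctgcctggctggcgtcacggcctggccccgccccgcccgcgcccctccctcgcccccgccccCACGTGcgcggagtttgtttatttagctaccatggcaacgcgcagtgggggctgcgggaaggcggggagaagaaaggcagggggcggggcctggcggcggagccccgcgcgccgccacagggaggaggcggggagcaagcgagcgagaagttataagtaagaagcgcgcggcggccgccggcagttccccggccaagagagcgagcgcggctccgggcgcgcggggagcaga
Klf6 promoter, chr13:5861239-5861538, plus strand: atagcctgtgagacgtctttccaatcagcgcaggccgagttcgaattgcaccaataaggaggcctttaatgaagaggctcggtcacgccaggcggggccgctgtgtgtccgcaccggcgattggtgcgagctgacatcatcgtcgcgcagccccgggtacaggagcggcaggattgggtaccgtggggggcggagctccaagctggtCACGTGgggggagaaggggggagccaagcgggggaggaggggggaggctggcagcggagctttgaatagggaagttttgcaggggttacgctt
Klf11 promoter, chr12:24651121-24651420, plus strand: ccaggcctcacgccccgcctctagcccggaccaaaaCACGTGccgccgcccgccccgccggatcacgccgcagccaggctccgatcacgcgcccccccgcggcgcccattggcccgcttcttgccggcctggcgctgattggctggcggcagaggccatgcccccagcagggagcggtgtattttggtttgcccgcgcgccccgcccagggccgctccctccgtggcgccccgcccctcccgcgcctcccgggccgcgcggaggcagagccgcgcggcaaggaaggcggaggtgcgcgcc

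Of the 10 members, 9 were in the RefSeq promoter table; Klf10 was not. Both strands were searched, and each position is that of the first base of the match relative to the gene start. The MEF2 site of Klf2 began at -118, and 0.557% of the 32851 mouse promoters in the table held a match to this motif in a window of the same length. CACGTG began at -182 in Klf4, -43 in Klf6 and -214 in Klf11, it occurred at 3 positions in Klf15, and 7.15% of all promoters held it. No MEF2 match was found in the other 8 windows and no CACGTG in Klf2, Klf3, Klf7, Klf9 or Klf13, which says only that these letters are not in these windows. The MEF2 and CACGTG motifs do not overlap in any window, since no window held both. Other motifs were searched too. GGGCGG was in every window but that of Klf9, and in 35.7% of all promoters. CACCC was in Klf2, Klf3, Klf7, Klf9, Klf13 and Klf15, and in 57.5% of all promoters.

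The 10 members differed widely in level. Klf2 led in GFP-Veh vessels with 532 ± 93.1 FPKM, followed by Klf4 with 153 ± 17.2, Klf6 with 99.4 ± 16.2 and Klf9 with 52.3 ± 11.6 FPKM, and the ranges of these neighbours did not overlap. Klf10 (24.3 ± 3.80 FPKM), Klf13 (21.3 ± 2.73), Klf7 (17.7 ± 3.39), Klf11 (13.2 ± 1.62) and Klf3 (11.5 ± 2.94) followed, each overlapping the next. Klf15 was lowest with 4.21 ± 0.837 FPKM and lay below Klf3 in every library of the group. In GFP-AL the order at the top was Klf2, Klf6, Klf4, with Klf6 and Klf4 overlapping. In LH3-AL Klf2 still lay above every other member, but Klf4, Klf6 and Klf9 overlapped one another in turn. Klf2 alone made up 53.4% to 65.6% of the summed FPKM of the 10 members for GFP-Veh, 51.4% to 65.9% for GFP-AL and 34.0% to 54.0% for LH3-AL. Summed over the 10 members, the level lay between 829.7 and 1049 FPKM for GFP-Veh, between 527 and 895 for GFP-AL and between 365 and 681 for LH3-AL.

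**Figure D1:**
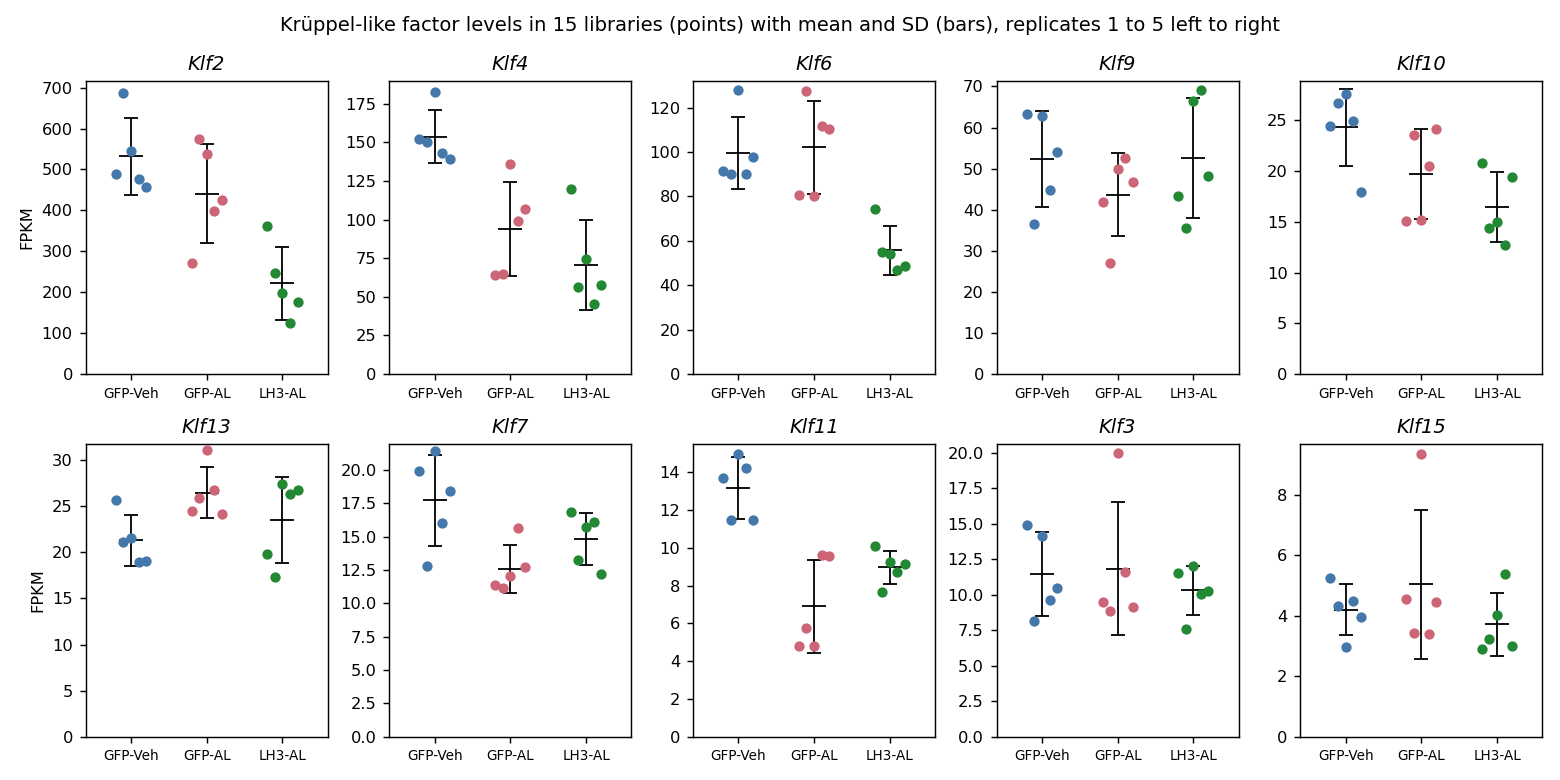
Level of each member in each library (FPKM, linear axis from 0, scaled for each gene), by group; points are libraries and bars are mean ± SD, n = 5 per group. Klf2 lies above the other 9 members in all 3 groups, and its LH3-AL points, 124 to 362 FPKM, lie below all GFP-Veh points, 458 to 688 FPKM.

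Klf2, the flow-induced endothelial factor (ENSMUSG00000055148, chr8:72319033-72321656 in GRCm38), was lowest in the vessels with the LH3 virus. Its 5 GFP-Veh libraries read 489.7, 688, 546, 478 and 458 FPKM. The 5 GFP-AL libraries read 271, 574, 537, 397 and 425 FPKM, and the 5 LH3-AL libraries 362, 247, 199, 124 and 175 FPKM. GFP-AL reached from well below the GFP-Veh range into it, all LH3-AL libraries lay below all GFP-Veh libraries, and LH3-AL replicate 1 lay above GFP-AL replicate 1, the lowest of its group. From GFP-AL to LH3-AL, Klf2 fell to 0.502 of its mean, a log2 difference of -1.03 ± 0.25 (SE; limma on log2(FPKM + 1), Benjamini-Hochberg adjusted p = 0.00797). Against GFP-Veh, the LH3-AL mean was 0.416 as high (-1.34 ± 0.25, limma adjusted p = 0.0238). The GFP-AL mean was 0.829 of GFP-Veh (-0.30 ± 0.25, limma adjusted p = 0.390), a difference within the spread between libraries. That value was 0.03 with the depth covariate, -0.14 without GFP-AL replicate 1, -0.46 without the 3 libraries that stood apart in an earlier analysis (GFP-AL replicates 2 and 3 and GFP-Veh replicate 2) and -0.65 with quantile scaling (limma adjusted p = 0.0516). Without those 3 libraries the difference between LH3-AL and GFP-AL was -0.78 and missed the threshold (limma adjusted p = 0.0603). In two-sided exact permutation tests over the 252 ways to split 10 libraries, whose smallest p is 0.00794, LH3-AL against GFP-AL gave p = 0.0159 (0.0238 after adjustment over 9 tests, those of Klf2, Klf4 and Klf6 in 3 comparisons) and LH3-AL against GFP-Veh gave p = 0.00794 (0.0143 adjusted). The limma call against GFP-Veh was lost when any single GFP-Veh library was left out (adjusted p = 0.0517 to 0.0699) or any of LH3-AL replicates 3, 4 and 5 (0.0700 to 0.0799), with all differences between -1.53 and -1.15.

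Klf2 was set beside depth and immediate early genes over the 15 libraries, as a description. All 5 GFP-AL libraries had higher immediate early means (4.98 to 6.28) than any GFP-Veh library (4.68 to 4.93). Mean Klf2 was 441 FPKM in GFP-AL and 532 FPKM in GFP-Veh, a difference that did not pass the test. The GFP-AL libraries, at an estimated 21.1 to 27.8 M fragments, ranged from 271 to 574 FPKM of Klf2. Within LH3-AL, replicate 1, the highest in Klf2, was also the shallowest library of the group, at an estimated 18.0 M fragments against 26.9 to 31.6 M. It also had the highest mean log2 level of 16 immediate early genes in the group, 5.52 against 3.64 to 4.82. The 5 LH3-AL libraries had the same order in Klf2 and in this mean, falling from replicate 1 through 2, 3 and 5 to 4. Within GFP-Veh and within GFP-AL the 2 orders differed. In GFP-Veh, 4 libraries had an estimated 13.6 to 16.0 M fragments, and replicate 5 had 29.8 M. These depth estimates may be off by a whole-number factor. GFP-Veh replicate 5 had the lowest Klf2 and the lowest Klf4 of its group, 458 and 139 FPKM. Both values lay above those of every LH3-AL library. With log2 depth as a covariate, Klf2 stayed lower in LH3-AL than in GFP-Veh by a log2 difference of -0.97 but did not pass the test (limma adjusted p = 0.677), and 4 of all 13082 genes passed in that fit. Against GFP-AL, whose libraries had 21.1 to 27.8 M fragments, the call held with that covariate. The part of depth and of immediate early activation in these differences was not tested further.

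**Figure D2:**
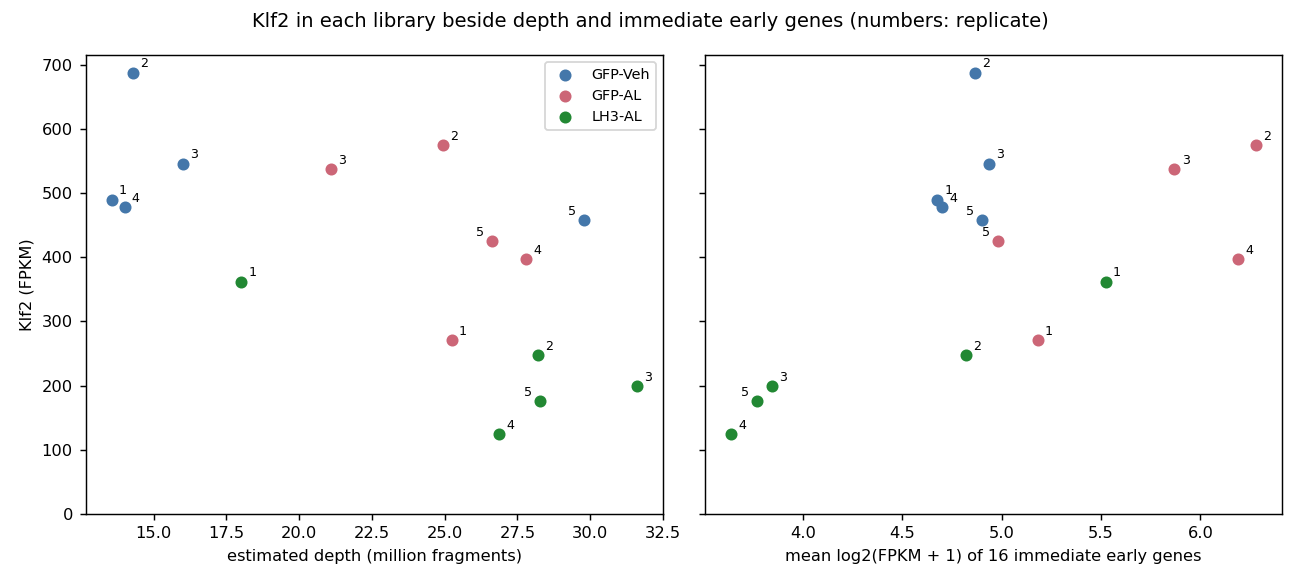
Klf2 level (FPKM) of each library against its estimated depth (M fragments) and against its mean log2 level of 16 immediate early genes, coloured by group and numbered by replicate. LH3-AL replicate 1, at 362 FPKM and 18.0 M fragments, stands above the other 4 libraries of its group, and GFP-Veh replicate 5, at 29.8 M fragments, stands at 458 FPKM.

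Klf4, which shares many endothelial targets with Klf2 and is also known from smooth muscle cells that change phenotype (ENSMUSG00000003032, chr4:55527143-55532466), was lower in both drug-treated groups than in GFP-Veh. GFP-Veh libraries read 152, 150.02, 183, 143 and 139 FPKM. GFP-AL libraries read 64.1, 64.5, 136, 99.1 and 107 FPKM, and LH3-AL libraries 119.7, 56.5, 74.3, 45.7 and 57.4 FPKM. Every GFP-AL and every LH3-AL library lay below every GFP-Veh library, whereas the 2 drug-treated groups overlapped. Klf4 fell to 0.613 of its GFP-Veh mean in GFP-AL (log2 difference -0.75 ± 0.24, limma adjusted p = 0.0291) and to 0.461 in LH3-AL (-1.18 ± 0.24, limma adjusted p = 0.0387). Between LH3-AL and GFP-AL the difference was -0.43 ± 0.24 (limma adjusted p = 0.188; exact permutation p = 0.222), and without LH3-AL replicate 1 it was -0.64 and passed the test (limma adjusted p = 0.0424). The Klf4 call in GFP-AL ended under several settings, among them the depth covariate (-0.47, limma adjusted p = 0.267) and median-of-ratios scaling (0.0650), and it also ended without GFP-Veh replicate 1 (0.0524) or 3 (0.0658) or GFP-AL replicate 1 (0.0662) or 2 (0.0690). In LH3-AL it ended without any single GFP-Veh library (limma adjusted p = 0.0740 to 0.126), without any of LH3-AL replicates 2 to 5 (0.0786 to 0.118) and without GFP-AL replicate 4 (0.0541) or 5 (0.0533). With the depth covariate the LH3-AL difference was -0.87 (limma adjusted p = 0.794), and the call held in 8 of 24 alternatives.

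Klf6 (ENSMUSG00000000078, chr13:5861482-5870394) did not follow Klf4. GFP-Veh libraries read 91.4, 90.1, 128, 89.97 and 97.6 FPKM. GFP-AL libraries read 80.4, 127.5, 80.4, 112 and 110.5 FPKM, and LH3-AL libraries 74.5, 54.9, 54.2, 46.9 and 48.6 FPKM. Of the GFP-AL libraries, 2 lay below the GFP-Veh range and 3 within it, and every LH3-AL library lay below all 10 others. From GFP-AL to LH3-AL Klf6 fell to 0.547 of its mean (log2 difference -0.85 ± 0.16, limma adjusted p = 0.00144), and this call held under all 24 alternative settings. Against GFP-Veh LH3-AL was at 0.562 (-0.83 ± 0.16, limma adjusted p = 0.0248), and this call was lost without GFP-Veh replicate 1, 3, 4 or 5 (0.0517 to 0.0748) or any of LH3-AL replicates 2 to 5 (0.0584 to 0.0864). With the depth covariate that difference was -0.78 and did not pass (limma adjusted p = 0.441). The difference between GFP-AL and GFP-Veh was 0.03 ± 0.16 (limma adjusted p = 0.911).

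Bulk vessels cannot separate fewer cells of a type from less RNA per cell. Of 12 endothelial markers, 6 were higher and 3 lower in GFP-AL than in GFP-Veh, beside 10.8% and 17.7% of all genes. In LH3-AL 1 was higher and 4 were lower than in GFP-AL, beside 17.0% and 11.4%. Between LH3-AL and GFP-Veh 0 passed, where 0.520% of all genes were called, so this does not show equal endothelial content. The summed level of these markers ran from 2686 to 3776 FPKM for GFP-Veh, 3747 to 5794 for GFP-AL and 2410 to 3935 for LH3-AL. Taken relative to the mean log2 level of these markers in the same library, a setting chosen after the data were seen, the differences between LH3-AL and GFP-Veh were -1.32 for Klf2, -1.17 for Klf4 and -0.81 for Klf6, each with non-overlapping groups (exact permutation p = 0.00794, 0.0179 adjusted over 9 tests). Between LH3-AL and GFP-AL they were -0.88 for Klf2 (exact permutation p = 0.0556) and -0.70 for Klf6 (exact permutation p = 0.0397, 0.0714 adjusted), so both missed the adjusted threshold there. Klf4 in GFP-AL against GFP-Veh was -0.89 on this scale (exact permutation p = 0.00794). The 12 markers include Tek, listed below as raised by KLF2 or KLF4, and flow-route genes such as Pecam1 and Cdh5. This reference is therefore not independent of genes tied to Klf2 and Klf4.

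Klf11 and Klf7 had their lowest means in GFP-AL, not in LH3-AL. Klf11 (ENSMUSG00000020653, chr12:24651274-24662789) read 13.7, 11.5, 15.0, 14.2 and 11.5 FPKM in GFP-Veh, 4.83, 5.75, 4.82, 9.62 and 9.56 FPKM in GFP-AL, and 10.1, 7.69, 9.23, 8.73 and 9.13 FPKM in LH3-AL. Both drug-treated groups lay below GFP-Veh without overlap, and GFP-AL fell into a low set of replicates 1, 2 and 3 and a higher pair that overlapped LH3-AL. Klf11 fell to 0.525 of its GFP-Veh mean in GFP-AL (-0.89 ± 0.17, limma adjusted p = 0.00139), and this call held under all 24 alternatives. Between LH3-AL and GFP-AL the difference was 0.38 ± 0.17 (limma adjusted p = 0.0970), and it passed when GFP-AL replicate 4 (0.0293) or replicate 5 (0.0306) was left out. Between LH3-AL and GFP-Veh the difference was -0.50 ± 0.17 (limma adjusted p = 0.326). Klf10, of the same subfamily, stood at 24.3 ± 3.80, 19.7 ± 4.40 and 16.5 ± 3.45 FPKM in GFP-Veh, GFP-AL and LH3-AL and passed in no comparison. Its largest difference was -0.54 ± 0.17 between LH3-AL and GFP-Veh (limma adjusted p = 0.251).

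Klf7, known best from growing axons (ENSMUSG00000025959, chr1:64029447-64122282), read 19.9, 12.8, 21.4, 16.1 and 18.4 FPKM in GFP-Veh, 11.4, 11.1, 12.1, 15.7 and 12.7 FPKM in GFP-AL, and 16.8, 13.3, 15.7, 16.1 and 12.2 FPKM in LH3-AL. All 3 groups overlapped. Klf7 fell in GFP-AL, with a log2 difference of -0.45 ± 0.14 (limma adjusted p = 0.0214), and its differences in LH3-AL were 0.22 ± 0.14 from GFP-AL (limma adjusted p = 0.229) and -0.23 ± 0.14 from GFP-Veh (0.652). Its call ended with median-of-ratios scaling (-0.36) and with the depth covariate (-0.48; limma adjusted p = 0.0751 in each), and without GFP-Veh replicate 1 (0.0557) or 3 (0.0573). An exon of Klf7 overlaps the opposite-strand genes Gm26649 and Gm13748, and one of Klf3 overlaps Gm20033, so without a stated strand setting these reads could be shared.

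The remaining members passed in no comparison. The glucocorticoid-responsive Klf9 ranged from 36.5 to 63.2 FPKM for GFP-Veh, 27.0 to 52.6 for GFP-AL and 35.7 to 69.2 for LH3-AL, and Klf15 from 2.97 to 5.27, 3.41 to 9.35 and 2.90 to 5.40 FPKM. Their log2 differences lay between -0.31 and 0.25. Klf13, a Sin3-binding relative of Klf9, had a mean of 21.3 ± 2.73 FPKM with saline and 26.5 ± 2.79 with the drugs, a difference of 0.30 ± 0.13 (limma adjusted p = 0.0936), and 23.5 ± 4.64 FPKM in LH3-AL. Klf3 averaged 11.5 ± 2.94, 11.8 ± 4.69 and 10.3 ± 1.74 FPKM. Missing the threshold does not show that these levels were alike.

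**Figure D3:**
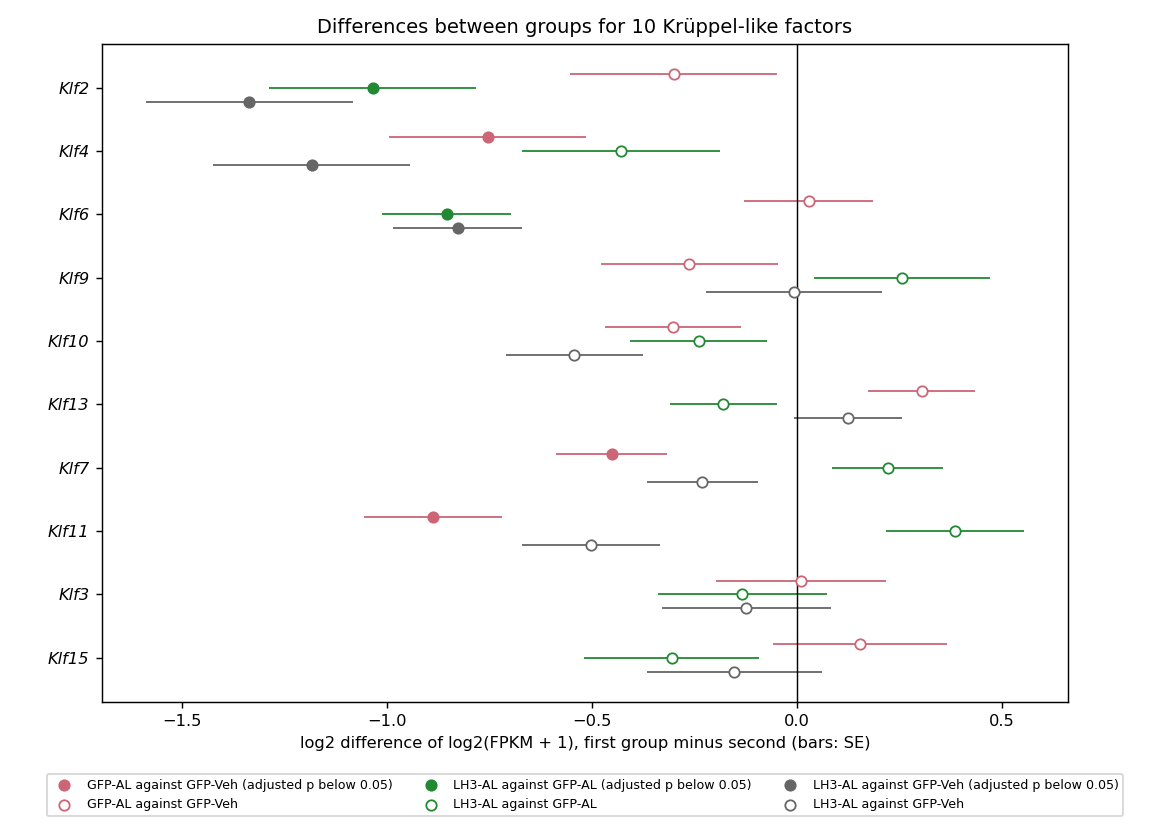
Log2 difference of log2(FPKM + 1) for each member in the 3 comparisons, with bars for SE; filled points passed limma at an adjusted p below 0.05. All 8 filled points lie left of 0, with Klf2 reaching -1.34 and Klf4 -1.18 in LH3-AL against GFP-Veh.

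Counted over the family, every call was a fall. In GFP-AL against GFP-Veh, 3 of 10 members fell (Klf4, Klf7 and Klf11), 0 rose and 7 did not pass, where 28.6% of the 13082 genes tested were called, 17.7% lower and 10.8% higher. That split over all genes was 1416 higher to 2321 lower, and 1843 to 1712 with median-of-ratios scaling. In LH3-AL against GFP-AL, 2 of 10 fell (Klf2 and Klf6), against 28.5% of all genes called, 11.4% lower and 17.0% higher; the split was 2227 higher to 1496 lower, or 1784 to 1895 with median-of-ratios scaling. In LH3-AL against GFP-Veh, 3 of 10 fell (Klf2, Klf4 and Klf6), where 68 of all genes, 0.520%, were called in either direction, 0.375% lower and 0.145% higher. Groups did not overlap, with the first lower, for 2 members in the first comparison, 1 in the second and 4 in the third (Klf2, Klf4, Klf6 and Klf11), beside 10.1%, 8.45% and 2.61% of all genes. The members' median log2 differences were -0.28, -0.21 and -0.37, and those of all genes -0.09, 0.08 and -0.01. The 3 comparisons share libraries in pairs, so their counts are not independent of each other. The number of members called in LH3-AL against GFP-Veh was 0 with the depth covariate, 0 with a replicate block and 0 to 3 when 1 library was left out. That number dropped below 2 without any single GFP-Veh library and without any of LH3-AL replicates 2 to 5.

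The flow-responsive pair was also set against the other 8 members within each library, as a description. The mean log2 level of Klf2 and Klf4 exceeded that of the other members by 3.49 to 4.08 for GFP-Veh, 3.00 to 3.70 for GFP-AL and 2.03 to 3.49 for LH3-AL. The mean gap changed by -0.35 on the log2 scale from GFP-Veh to GFP-AL (-0.10 with the depth covariate and -0.60 with quantile scaling) and by -0.63 from GFP-AL to LH3-AL (-0.40 with quantile scaling). With 1 library left out, the change from GFP-Veh to LH3-AL ran from -1.16 to -0.80. The other 8 members include Klf6. From GFP-AL to LH3-AL the log2 differences were -1.03 for Klf2, -0.43 for Klf4 and -0.85 for Klf6. LH3-AL replicate 1 (3.49) lay within the GFP-AL range. Klf2 stood at 2.99 to 4.58 times the Klf4 level in GFP-Veh, 3.96 to 8.91 in GFP-AL, where replicate 2 gave the highest value and the other 4 lay between 3.96 and 4.23, and 2.67 to 4.38 in LH3-AL. Apart from that library, the GFP-AL ratios lay within the GFP-Veh range, whose upper end came from GFP-Veh replicate 2 alone (4.58). Every GFP-AL ratio lay above those of the other GFP-Veh libraries, 2.99 to 3.33.

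Genes of the route from flow to Klf2 and Klf4 moved in both directions. Of 18 tested, 2 rose and 6 fell in GFP-AL against GFP-Veh, beside 10.8% and 17.7% of all genes. Pecam1, a junction protein of the flow sensor, rose (0.67 ± 0.13, limma adjusted p = 0.00182), while the MEF2-binding repressors Hdac7 (-0.45 ± 0.10, 0.00504) and Hdac5 (-0.43 ± 0.10, 0.00659) and the junction adaptor Krit1 (-0.40 ± 0.10, 0.00841) fell. With the LH3 virus, against GFP-AL, 2 rose and 3 fell, beside 17.0% and 11.4% of all genes. Mapk7, which encodes ERK5, fell from 2.86 ± 0.280 to 1.99 ± 0.316 FPKM (-0.37 ± 0.11, limma adjusted p = 0.0179), Pecam1 and the endothelial cadherin Cdh5 fell by 0.46 and 0.55 on the log2 scale, and Hdac7 rose by 0.45. Between LH3-AL and GFP-Veh, where 0.520% of all genes were called, 0 of the 18 passed.

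Endothelial genes known to be raised by KLF2 or KLF4 did not move as a block. Of 9 tested, 2 rose and 2 fell in GFP-AL against GFP-Veh, beside 10.8% and 17.7% of all genes. The list's median difference was -0.04. Nos3, which encodes the endothelial nitric oxide synthase that L-NAME inhibits, rose from 111 ± 11.0 to 169.6 ± 23.0 FPKM (0.60 ± 0.14, limma adjusted p = 0.00482), and Gja4, a gap junction gene of arteries, from 39.1 ± 9.76 to 78.1 ± 27.3 FPKM (0.95 ± 0.20, 0.00253). Tek, the angiopoietin receptor, fell by 0.95 (limma adjusted p = 0.00285), as did Plpp3, a lipid phosphatase listed in the table as Ppap2b, by 0.59 (0.00694). From GFP-AL to LH3-AL, 2 rose and 3 fell, beside 17.0% and 11.4% of all genes. The signs of the calls above were the opposite there, and both comparisons share the GFP-AL libraries. Nos3 fell to 97.1 ± 18.5 FPKM (-0.81 ± 0.14, limma adjusted p = 0.000844), Gja4 to 42.3 ± 3.15 FPKM (-0.81 ± 0.20, 0.00778), and Tek and Plpp3 rose by 0.84 and 0.48. S1pr1, the sphingosine-1-phosphate receptor of endothelium, fell from 450.3 ± 63.2 to 303 ± 52.8 FPKM (-0.58 ± 0.13, limma adjusted p = 0.00621), with GFP-Veh at 434 ± 38.3 FPKM. Thbd, the anticoagulant thrombomodulin, passed in no comparison, at 97.6 ± 15.8, 97.6 ± 33.2 and 80.4 ± 13.3 FPKM. Between LH3-AL and GFP-Veh, where 0.520% of all genes were called, 0 of the 9 passed; S1pr1 came closest with -0.53 ± 0.13 (limma adjusted p = 0.119).

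Endothelial genes known to be held down by KLF2 or KLF4 mostly rose under the drugs. Of 10 tested, 7 rose and 0 fell in GFP-AL against GFP-Veh, beside 10.8% and 17.7% of all genes. The list's median difference was 1.97. Angpt2, an antagonist of Tek, went from 12.1 ± 2.51 to 60.4 ± 14.0 FPKM (2.21 ± 0.23, limma adjusted p = 1.82e-05), and the adhesion molecule Icam1 from 26.2 ± 4.49 to 92.1 ± 28.1 FPKM (1.73 ± 0.28, 0.000453). Among the others that rose were Selp (2.44), Sele (2.57), Ccl2 (2.24) and Ace (0.87). From GFP-AL to LH3-AL, 6 of the 10 fell, beside 11.4% of all genes. Among them were Angpt2 by 2.24, Icam1 by 1.30 and Selp by 1.96 on the log2 scale. Both comparisons share the GFP-AL libraries. In LH3-AL against GFP-AL 1 gene of the list rose, beside 17.0% of all genes. That gene, Edn1, the vasoconstrictor endothelin 1, stood at 47.8 ± 5.32 FPKM for GFP-Veh, 47.0 ± 7.02 for GFP-AL and 73.6 ± 6.19 for LH3-AL. It rose by 0.64 ± 0.11 from GFP-AL (limma adjusted p = 0.00093) and by 0.62 ± 0.11 from GFP-Veh (0.0192). Ace, which makes angiotensin II, was the other gene of this list above GFP-Veh in LH3-AL, at 40.7 ± 6.22 against 25.5 ± 2.28 FPKM (0.64 ± 0.12, limma adjusted p = 0.0229). Of all genes, 0.520% were called between LH3-AL and GFP-Veh.

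**Figure D4:**
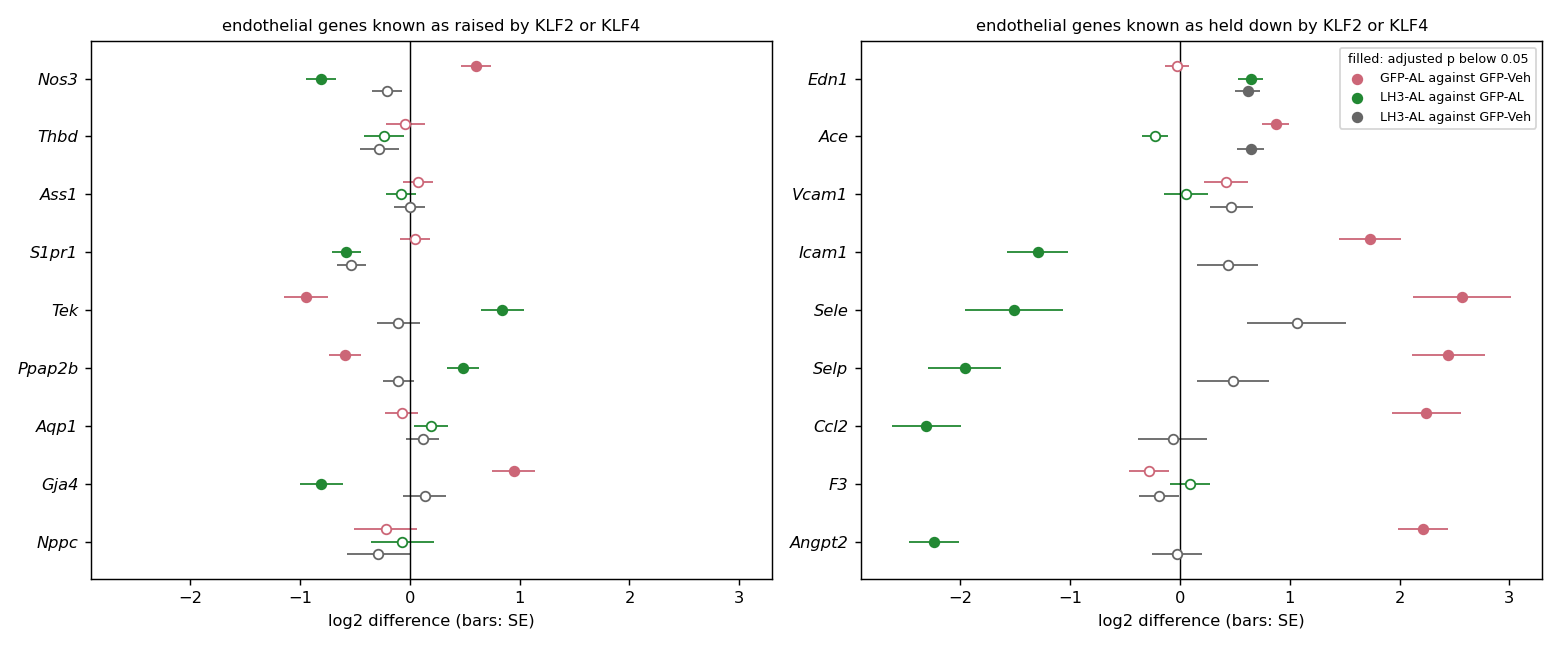
Log2 difference of log2(FPKM + 1) for endothelial genes known to be raised (one panel) or held down (other panel) by KLF2 or KLF4, in the 3 comparisons; not every gene of the lists is drawn, bars are SE and filled points passed limma at an adjusted p below 0.05. In LH3-AL against GFP-Veh, Edn1 (0.62) and Ace (0.64) carry the filled points.

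Leukocyte markers moved with these genes. Of 7 neutrophil markers tested, 5 rose in GFP-AL against GFP-Veh and 7 fell in LH3-AL against GFP-AL; the summed level of all 8 listed ran from 78.9 to 222 FPKM for GFP-Veh, 109 to 914 for GFP-AL and 37.9 to 63.6 for LH3-AL. Of 9 microglia markers, 3 were higher in GFP-AL than in GFP-Veh, and 4 were lower in LH3-AL than in GFP-AL. Their sums were 150.5 to 340.3 FPKM for GFP-Veh, 372 to 612 for GFP-AL and 204 to 229 for LH3-AL. Of 4 monocyte and macrophage markers tested, 3 were higher in GFP-AL than in GFP-Veh, and 3 were lower in LH3-AL than in GFP-AL. No marker of these lists lay below 0.05 FPKM in every library of a group. Klf2 and Klf4 are also expressed by myeloid cells and lymphocytes. The 7 lymphocyte markers summed to at most 11.5 FPKM in any library. Of the 2 tested, 0 rose and 1 fell in GFP-AL against GFP-Veh, and 0 passed in LH3-AL against GFP-AL. Pericyte markers were lower for 3 of 9 in GFP-AL than in GFP-Veh and higher for 3 of 9 in LH3-AL than in GFP-AL. Smooth muscle markers were lower for 1 of 8 in GFP-AL than in GFP-Veh, and 0 passed in LH3-AL against GFP-AL. Choroid plexus markers were lower for 5 of 6 in GFP-AL than in GFP-Veh and higher for 4 of 6 in LH3-AL than in GFP-AL. Red cell markers rose for 6 of 6 in GFP-AL against GFP-Veh. Between LH3-AL and GFP-Veh 2 of the 6 rose, and the median difference of the 6 was 1.73. Oligodendrocyte markers were lower for 4 of 6 in GFP-AL than in GFP-Veh and higher for 2 of 6 in LH3-AL than in GFP-AL. Of 6 astrocyte markers, 1 rose and 2 fell in GFP-AL against GFP-Veh, and 1 rose and 1 fell in LH3-AL against GFP-AL. The part of cell makeup in the member differences was not tested beyond the endothelial reference above.

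Lists tied to the inducers of the other members gave mixed counts. Immediate early genes, the rapid transcription factors of stimulated cells, rose for 5 of 16 in GFP-AL against GFP-Veh (Ier3 by 2.62, Fosl1 by 2.75, Junb by 2.23 and Maff by 1.29) and fell for 9 of 16 in LH3-AL against GFP-AL (Fosl1, Maff, Ier3 and Fosl2 among them). Against GFP-Veh, LH3-AL vessels had lower Atf3, which fell from 19.1 ± 5.17 to 3.90 ± 3.10 FPKM (-2.17 ± 0.31, limma adjusted p = 0.00582) and Ier3 rose by 1.08 (0.0411). Of 13 TGF-beta signalling genes, 2 rose and 2 fell under the drugs: Tgfb1 rose by 1.14 and Tgif1 by 0.51, and Tgfb2 fell by 0.89 and Tgfb3 by 0.53. From GFP-AL to LH3-AL, 1 rose (Tgfb2, by 1.33) and 3 fell, including Tgfb1 by 0.99. Of 16 glucocorticoid and clock genes, 5 rose and 2 fell in GFP-AL against GFP-Veh, among them Fkbp5 (2.30) and Nr3c1, the glucocorticoid receptor (-0.75), while Klf9 and Klf15 passed in no comparison. With the LH3 virus 2 of the 16 rose and 7 fell against GFP-AL. The clock outputs Dbp (4.75 ± 1.29 to 20.4 ± 9.24 FPKM, limma adjusted p = 0.0102) and Nr1d1 (28.9 ± 2.495 to 64.3 ± 23.0 FPKM, 0.0446) were the 2 of this list that passed, both higher, in LH3-AL against GFP-Veh.

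Of the other KLF and SP family genes, 10 of 16 were tested. Over all genes, 10.8% rose and 17.7% fell in GFP-AL against GFP-Veh, and 17.0% rose and 11.4% fell in LH3-AL against GFP-AL. Sp5 rose and Sp7 fell in GFP-AL against GFP-Veh, both with group means below 3 FPKM, Sp7 from 1.45 ± 0.322 to 0.655 ± 0.204 (0.57 and -0.57, limma adjusted p = 0.00686 and 0.00563). In LH3-AL against GFP-AL, Klf12, a CtBP-binding repressor, rose from 1.86 ± 1.09 to 5.74 ± 2.22 FPKM (1.26 ± 0.34, limma adjusted p = 0.0144), Sp7 rose, and Klf16 fell from 13.2 ± 2.96 to 8.58 ± 0.346 FPKM (-0.55 ± 0.12, 0.00463). Between LH3-AL and GFP-Veh, where 0.520% of all genes were called, 0 of the 10 passed. Of 9 co-regulators of the family, Ctbp2 (-0.64 ± 0.08, limma adjusted p = 8.54e-05) and Hdac2 (-0.26, 0.0423) fell in GFP-AL against GFP-Veh, and Ctbp2 rose by 0.38 in LH3-AL against GFP-AL (0.00450).

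The genes whose profile was closest to Klf2 over the 15 libraries, by the root mean square difference of log2(FPKM + 1) after centring each gene, were Arid5a (0.32), Rhob (0.34), Klf6 (0.38), Lmcd1 (0.39) and Jund (0.39). Rhob, a small GTPase of vesicle traffic, averaged 315, 268 and 176 FPKM in GFP-Veh, GFP-AL and LH3-AL. Klf4 ranked 9 for Klf2 (0.41). The genes closest to Klf4 were Ccdc117 (0.34), Rad54b (0.35), Cacybp (0.38), Tax1bp3 (0.39) and Dusp8 (0.41), and Klf2 ranked 7. Dusp8, a MAP kinase phosphatase, averaged 24.7, 12.3 and 10.2 FPKM. These likenesses describe the same libraries that gave the group differences.

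None of the 10 members was listed in the authors' deposited tables of differential genes, which hold 1764 and 1746 genes, all past 1 on the log2 scale in either direction and with q below 0.05. The table named for LH3-AL against GFP-Veh, the second of the authors' deposited tables, had the same sign as LH3-AL minus GFP-AL for all 1746 of its genes and as the comparison in its name for 1027. Klf12 was in the authors' deposited table of that name with a log2 fold change of 1.63 and a q-value of 0.00176. Its mean was 5.74 FPKM in LH3-AL, 1.86 in GFP-AL and 4.51 in GFP-Veh. By its signs that table holds LH3-AL against GFP-AL, so the absence of a member from it says nothing about LH3-AL against GFP-Veh.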

How the data were processed

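Cerebral vessels were prepared from perfused mouse brains by homogenisation and repeated spins, and libraries followed a standard Illumina protocol, per the labels' protocols. STAR 2.5.1b and mm8 stand in the submitters' processing notes; counting step, annotation and strandedness were not given in the sources used here. Per the file name, the authors deposited FPKM values for 22557 genes. Of these values 5.99% lie below 0 (lowest -0.465), which FPKM cannot do, so the deposited values were handled as an expression score on the FPKM scale and negative values were set to 0. Rows that shared 31 symbols were summed. The authors also deposited tables with log2 fold changes and with p-values and q-values, per the file headers, from a test not given in the sources used here.

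Groups came from the titles. The test was limma 3.58.1 (R 4.3.3) on log2(FPKM + 1) where the mean over libraries reached 1 FPKM, with the 3 group means over 15 libraries, a trended empirical Bayes variance and Benjamini-Hochberg adjustment over 13082 genes; adjusted p below 0.05 was called. Log2 differences understate changes of low genes. The procedure was checked on simulated data. Two-sided exact permutation tests were planned for Klf2 and Klf4. Klf6 was not in that plan and was tested in the same way. Depth was estimated from the step between low values, at 13.6 to 31.6 M fragments. Multiples of the true depth also give whole reads, so the lowest depth near the best share of whole steps was taken. A library's estimate may therefore be off by a whole-number factor. The steps were near whole reads for only 43.0% to 65.3% of low values, so no count test was run and no counting interval is given. Positions are those of GENCODE M21 (GRCm38), which matched 22400 identifiers; the files hold no coordinates. Alternatives were another pseudocount (0.1), no filter or one at 5 FPKM, median-of-ratios and quantile scaling, only the groups compared, a replicate block, a depth covariate, leaving out 3 libraries that stood apart earlier (GFP-AL replicates 2 and 3 and GFP-Veh replicate 2), and leaving out each library.

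All members were named, with up to 4 called genes per list and comparison, smallest p first, any gene of the lists tied to KLF2 and KLF4, and the 5 genes closest to Klf2 and to Klf4. Plod3 was named as the gene of the virus. Plpp3, absent by that symbol, was matched by identifier. A gene of the lists is counted but not reported here by name. The members and lists were chosen with earlier results of these data known.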

Additional observations from a re-analysis of the deposited data

Results flagged for a closer look

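In 4 of 30 sets of 5 libraries (10 members in 3 groups), 1 library lay far from the others by Dixon's criterion, which chance alone meets in about 1 of 20. Klf3 read 19.99 FPKM in GFP-AL replicate 3, with the other libraries of the group at 8.86 to 11.6 FPKM. Klf15 read 9.35 FPKM in the same library, with the others at 3.41 to 4.57 FPKM. Klf6 read 128 FPKM in GFP-Veh replicate 3, with the others at 89.97 to 97.6 FPKM, and 74.5 FPKM in LH3-AL replicate 1, with the others at 46.9 to 54.9 FPKM.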

How the results depend on the processing

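The 8 calls on members kept their direction under all 24 alternatives, and those of Klf11 in GFP-AL against GFP-Veh and of Klf6 in LH3-AL against GFP-AL also stayed called. The number of members called in GFP-AL against GFP-Veh, 3, became 1 with median-of-ratios scaling and 1 with the depth covariate, and ran from 1 to 3 with a library left out. In LH3-AL against GFP-AL, 2 became 1 (Klf6) without the 3 libraries apart, where Klf2 was at -0.78 (limma adjusted p = 0.0603), and ran from 2 to 3 with a library left out. In LH3-AL against GFP-Veh, 3 became 1 without a filter, 1 with quantile scaling, 0 with the replicate block and 0 with the depth covariate, and ran from 0 to 3 with a library left out. There Klf2 held its call in 13 of 24 alternatives, Klf4 in 8 and Klf6 in 13; Klf4 in GFP-AL held in 17 and Klf7 in 20. Without GFP-Veh replicate 1 or 3, the calls of Klf4 and Klf7 in GFP-AL were lost. The cause of these losses was not tested.

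Same-numbered libraries correlated between -0.261 and 0.286, and different-numbered ones between -0.377 and 0.402. These correlations show no pairing by number but cannot exclude one. With the replicate block, genes called were 3783, 3879 and 31 in the 3 comparisons, against 3737, 3723 and 68 without it. In LH3-AL against GFP-Veh they were 176 with only those groups fitted, 158 without the 3 libraries apart, 27 to 110 with a library left out and 4 with the depth covariate; the depth covariate left 2383 in GFP-AL against GFP-Veh. By the depth estimates GFP-Veh was mostly shallower than the drug-treated groups, so depth and group cannot be fully told apart. Since an estimate may be off by a whole-number factor, that difference and the fits with the depth covariate are uncertain too.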
